A study of Prunus sibirica with 6 samples.

Results

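The LOB-domain family of transcription factors was followed in flower buds of Prunus sibirica, the Siberian apricot, by RNA-seq. Its members were the transcript clusters that the authors' table of transcription factors and other regulators lists under the family LOB, each taken once. There were 31 such clusters among 1508 regulator clusters. The male sterile group was buds of clone No. 1 (3 libraries), and the male fertile group was buds of clone No. 60 (3 libraries), both labelled as the microspore developmental stage with no treatment listed. Each group is 1 clone, so male sterility and every other difference between the clones cannot be told apart. The libraries are called biological replicates without a statement that they came from separate trees, so the tests weigh the clone difference against library spread that may be technical.

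LOB-domain proteins, also called LBD proteins, are plant-specific DNA-binding factors named after LATERAL ORGAN BOUNDARIES, which in Arabidopsis marks the border between the shoot apex and a new organ. Class I holds LOB itself, Asymmetric Leaves 2 (AS2) and the factors that act in organ boundaries, lateral roots, vascular tissue and pollen, many of them downstream of auxin. Class II is a small group known in Arabidopsis mainly for responses to nitrogen, anthocyanin synthesis and low oxygen.

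Of the 31 clusters, 29 had a LOB-domain protein of Arabidopsis thaliana as their best Swiss-Prot match, 26 of class I and 3 of class II. The other 2 did not. Cluster-6671.14273 matched SUVR3, a histone methyltransferase, and stood under the SET family as well, and Cluster-6671.12333 matched At1g18910, a relative of the iron regulator BRUTUS. In both, the LOB reading frame lay on the opposite strand to the listed coding span, as it also did in Cluster-5750.2, and the other 28 had both on 1 strand. The family label therefore holds for 29 clusters by their best match. The pair without one is left out of the summed levels and described last, but counts and ranks over all 31 clusters include it.

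Members carry the name of their Arabidopsis match, which is not proof of a one-to-one relation. The 29 clusters bore 19 names, of which 11 had 1 cluster and 8 were shared by 18 clusters. Of the 31 clusters, 4 shared a best Prunus nucleotide match with another, namely Cluster-7108.0 with Cluster-7108.1 (LBD1) and Cluster-5750.1 with Cluster-5750.2 (LBD12). These may divide reads of 1 gene. Some names differed between the matches: Cluster-6671.20529, named LOB, matched LBD25 of Prunus mume, and the names LBD37 and LBD38 changed places. Cluster-6671.1027, named LBD36, and Cluster-4257.0, named LBD2, both matched Prunus mume genes called LBD6-like, and LBD6 is another name of AS2. Clusters were 374 to 6349 bases long, with a median of 1144 bases against 2142 bases over all regulators.

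Levels are given in the FPKM that the authors deposited, which divides fragments by cluster length and depth of the library. Counts of 957196 to 1122298 per sterile library and 1242099 to 1424835 per fertile library fell on the regulators. Counts were tested with edgeR's quasi-likelihood test over 1380 regulator clusters, with Benjamini-Hochberg adjustment over all of them, and a change was called at an adjusted p under 0.05. Fold changes are sterile over fertile. The buds expressed floral identity genes in both clones. The DROOPING LEAF homologue DL was at 69.9 ± 0.702 FPKM in sterile and 34.0 ± 1.89 FPKM in fertile buds (SD, n = 3 each). All 6 tested flower gene clusters were called, against 57.0% of all tested regulators. Of these, 4 rose and 2 fell, and DL rose the most (log2 fold change 0.89). SEP1 and FBP2 were lower in sterile buds (log2 fold changes -0.18 and -0.41). SEP1 averaged 112.7 FPKM in sterile and 114.1 FPKM in fertile buds, and FBP2 90.9 FPKM in sterile and 108.8 FPKM in fertile buds. CRC was too low to be tested, averaging 0.687 FPKM in sterile and 0.237 FPKM in fertile buds. In whole buds, fewer cells of a type and less RNA per cell cannot be told apart.

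The family was more abundant in sterile than in fertile buds. Summed over the 29 clusters with a LOB-domain match, the level was 267.3 ± 1.6 FPKM in sterile libraries and 120.5 ± 8.46 FPKM in fertile libraries (SD, n = 3 each), and every sterile library was above every fertile one. Class I clusters made up most of the difference, with 157.7 ± 3.81 FPKM in sterile and 43.9 ± 1.78 FPKM in fertile buds, while class II clusters summed to 109.5 ± 2.83 FPKM in sterile and 76.7 ± 6.70 FPKM in fertile buds. AS2 was not the whole of it, since without AS2 the 29-cluster sum was 216.0 ± 1.55 FPKM in sterile and 119.6 ± 8.29 FPKM in fertile buds. The difference was not shared by all of class I. Its 19 clusters other than AS2, LBD22, LBD2 and LOB summed to 30.0 ± 1.39 FPKM in sterile and 28.5 ± 1.12 FPKM in fertile buds. The names set apart include the class I clusters with the largest rises in FPKM, so that choice favours a small difference in the rest. The 19 clusters were not all unchanged, since some rose, such as LBD4 (Cluster-6671.20415), and some fell, such as LBD36 (Cluster-6671.1027). No test is given for these sums over members. The 29 clusters took 0.827 ± 0.0166% of the regulator counts in sterile and 0.314 ± 0.0318% in fertile libraries.

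The make-up of the family differed as well. The class II clusters were 41.0% of the family's FPKM in sterile libraries (39.7% to 41.9%) and 63.6% in fertile libraries (62.8% to 64.8%). AS2 was 19.2% in sterile libraries (18.5% to 20.2%) and 0.726% in fertile libraries (0.614% to 0.821%). The LBD22 clusters together were 15.3% in sterile and 1.88% in fertile libraries, and the LBD2 clusters 4.49% in sterile and 0.339% in fertile libraries. The LOB clusters kept a more even part, at 8.80% in sterile (8.44% to 9.44%) and 9.85% in fertile libraries (9.46% to 10.2%), although their summed level was 23.5 ± 1.34 FPKM in sterile and 11.9 ± 0.448 FPKM in fertile buds.

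**Figure D1:**
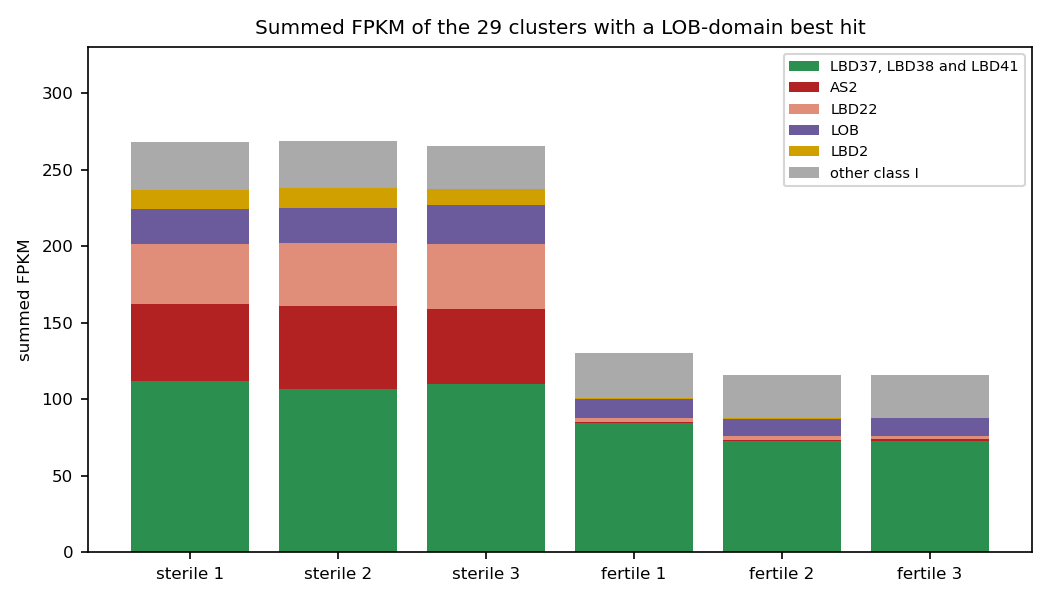
Summed FPKM (y axis) of the 29 clusters with a LOB-domain best match in each library (x axis), stacked by the genes they match. The 3 sterile libraries total 265.5 to 268.6 FPKM and the 3 fertile libraries 115.6 to 130.3 FPKM, and the AS2, LBD22 and LBD2 layers are broad in the sterile libraries and thin in the fertile ones.

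Of the 31 clusters, 24 had enough counts to be tested. In sterile against fertile buds 13 rose, 4 fell and 7 did not pass the test. Changes were common among regulators, with 57.0% of all tested clusters called, 28.0% higher and 28.9% lower, against 70.8%, 54.2% and 16.7% of the tested family clusters. Among changes of at least 2-fold, 9 of 24 (37.5%) were higher, against 5.72% of all tested regulators, and 2 of 24 (8.33%) were lower, against 7.68%. The median log2 fold change was 0.41 over the tested family clusters and 0.01 over all tested regulators. These shares are a description, since clusters low in both clones were not tested. With the 22 tested clusters that have a LOB-domain match, 12 rose and 4 fell. Of those 22, 8 (36.4%) rose and 2 (9.09%) fell by at least 2-fold.

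A second table of FPKM for 34377 clusters was tested with limma on log2(FPKM + 1). There 22 family clusters passed the filter, 12 were higher, 3 were lower and 7 were not called. Of the 20 with a LOB-domain match, 11 were higher and 3 lower. Of all 21730 clusters tested there 49.8% were called, 29.1% higher and 20.7% lower. On that scale 7 of the 22 family clusters (31.8%) were higher by at least 2-fold, against 6.82% of all, and 1 was lower by at least 2-fold, against 6.18% of all. With 1 library left out, the lower calls were 0 to 2. Both tables come from the same libraries, so this is another scaling and not an independent measurement. Over all 31 clusters, FPKM of the clones did not overlap in 20, with 16 higher and 4 lower in sterile buds, against 65.1% of all regulators without overlap, 43.5% higher and 21.6% lower.

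**Figure D2:**
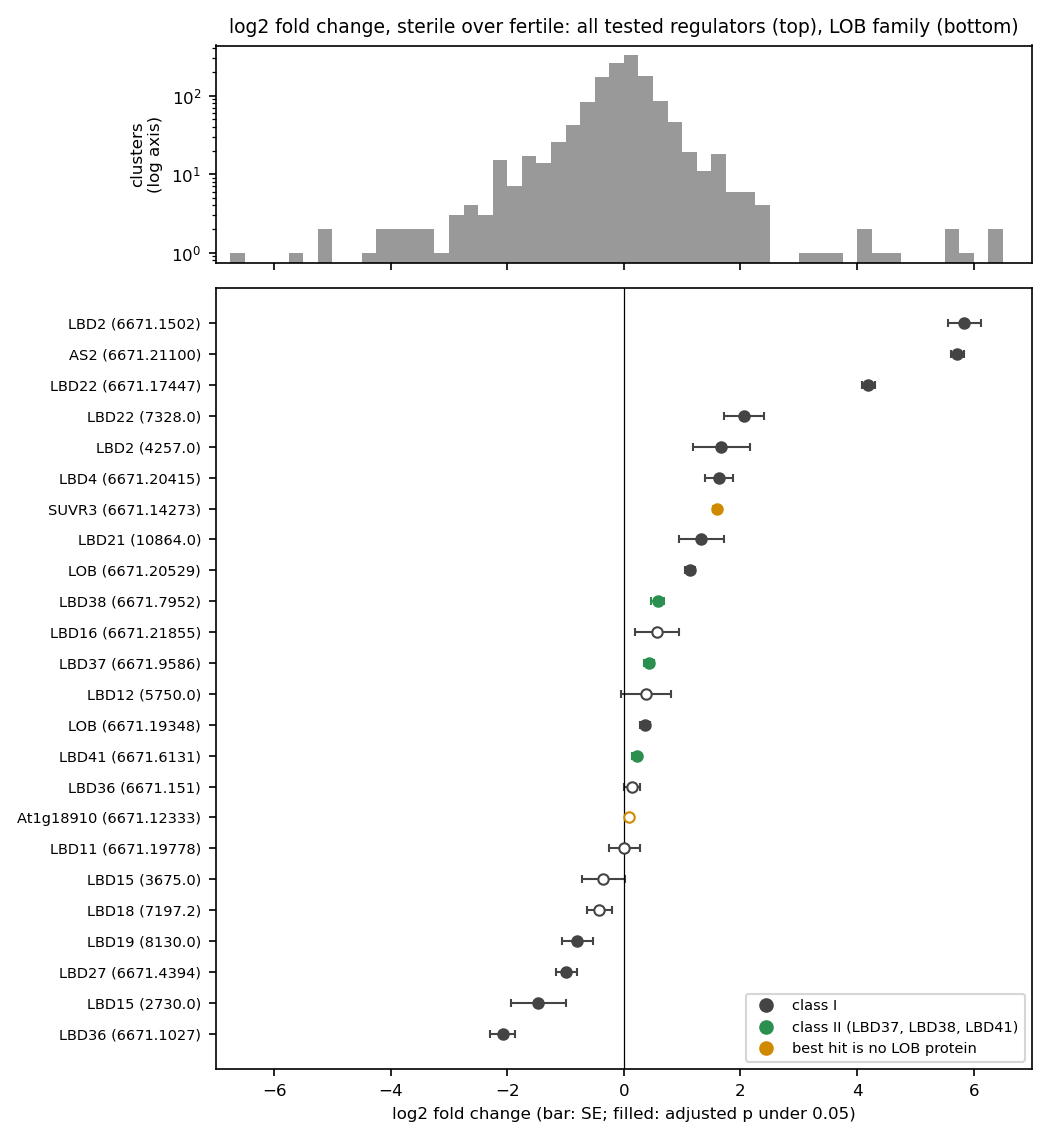
log2 fold change of sterile over fertile buds (x axis) for all 1380 tested regulators as a histogram (top, log axis) and for the 24 tested LOB-family clusters with their standard errors (bottom). Filled points passed an adjusted p under 0.05; 13 lie above 0 and 4 below it, and LBD2, AS2 and 1 LBD22 cluster lie in the sparse upper tail of the histogram.

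The first group of members belongs to leaf polarity and the shoot apex. AS2 works in Arabidopsis in a complex with the MYB protein AS1, which keeps KNOTTED-like homeobox genes silent in leaf primordia. The AS2 cluster (Cluster-6671.21100) was at 50.3, 54.3 and 49.0 FPKM in the sterile libraries, against 1.07, 0.710 and 0.860 FPKM in the fertile libraries. All sterile libraries were far above all fertile ones. Of the 31 clusters, AS2 was the second most abundant in sterile buds, below only SUVR3, which has no LOB-domain match. In fertile buds AS2 was only number 20. Its log2 fold change was 5.72 ± 0.11 (SE; adjusted p = 7.1e-17, edgeR). The cluster is 4279 bases long and its listed coding span takes 18.4% of that.

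AS1, the partner of AS2, did not pass the test. It was at 42.5, 41.1 and 41.0 FPKM in the sterile libraries, against 36.9, 36.3 and 37.8 FPKM in the fertile libraries, with a log2 fold change of 0.02 ± 0.06 (SE; adjusted p = 0.762, edgeR). Its FPKM did not overlap between clones, and with whole-library totals in place of the scaling among regulators it passed the test at a log2 fold change of 0.16. The ratio of AS2 to AS1 within a library, which no library scaling touches, was 1.18, 1.32 and 1.20 in the sterile libraries and 0.0290, 0.0196 and 0.0227 in the fertile libraries. In FPKM, AS2 thus stood at about the level of AS1 in sterile buds and far under it in fertile buds. FPKM is already divided by cluster length, so the ratio compares transcript numbers only as far as the listed lengths of both clusters hold.

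The list of AS2 partners, KNOTTED-like genes and leaf polarity factors had 19 tested clusters, of which 6 rose, 3 fell and 10 did not pass. That is 47.4% called, against 57.0% of all tested regulators. None of the 19 changed by at least 2-fold. KNAT6, a KNOTTED-like gene of the shoot apex, had a pair of clusters that rose. Cluster-6671.17970 averaged 5.34 ± 0.0702 FPKM in sterile and 2.97 ± 0.176 FPKM in fertile buds (SD, n = 3 each; log2 fold change 0.71), and the more abundant Cluster-6671.7015 averaged 25.02 ± 0.376 FPKM in sterile and 18.9 ± 0.536 FPKM in fertile buds (log2 fold change 0.25). STM, the KNOTTED-like gene that maintains the shoot apex, did not pass, at 6.16 ± 0.776 FPKM in sterile and 6.30 ± 0.420 FPKM in fertile buds (log2 fold change -0.18). A cluster matching the apple homeobox protein knotted-1-like 2 averaged 16.1 ± 0.942 FPKM in sterile and 11.2 ± 0.645 FPKM in fertile buds (log2 fold change 0.39). Among polarity factors, KAN2, which marks the lower side of lateral organs, rose by 0.59 on the log2 scale. ATHB-8, a homeobox gene of procambium, fell by 0.41 on the log2 scale.

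Beside AS2, LBD36 has an Arabidopsis counterpart known as Asymmetric Leaves 2-like 1, which takes part in petal patterning. It had a pair of clusters, of which 1 fell and 1 did not pass the test. Cluster-6671.1027 was at 0.750, 0.680 and 0.870 FPKM in the sterile libraries, against 3.13, 2.85 and 2.81 FPKM in the fertile libraries. It was the family cluster with the largest called fall, at a log2 fold change of -2.08 ± 0.21 (SE; adjusted p = 2.3e-07, edgeR). Its Prunus mume match is LBD6-like. Cluster-6671.151, which matches LBD36 of Prunus mume, averaged 6.71 ± 1.23 FPKM in sterile and 5.50 ± 0.342 FPKM in fertile buds and did not pass the test (log2 fold change 0.14 ± 0.13, adjusted p = 0.382, edgeR). When the LBD36 clusters were summed, the log2 fold change was -0.30 (adjusted p = 0.0475, edgeR), against the direction of the larger cluster.

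A second group belongs to organ boundaries. LOB limits brassinosteroid responses at organ boundaries in Arabidopsis. Cluster-6671.20529, named LOB, was at 15.6, 15.5 and 17.3 FPKM in the sterile libraries, against 6.92, 6.17 and 6.80 FPKM in the fertile libraries. The clones did not overlap, and the log2 fold change was 1.13 ± 0.09 (SE; adjusted p = 7.7e-09, edgeR). The other LOB cluster (Cluster-6671.19348), which also matches LATERAL ORGAN BOUNDARIES of Prunus mume, rose by less, at 7.41 ± 0.365 FPKM in sterile and 5.22 ± 0.214 FPKM in fertile buds (log2 fold change 0.36 ± 0.09, adjusted p = 0.00347, edgeR).

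Against 57.0% of all tested regulators, all 4 tested clusters of the brassinosteroid list were called, 2 higher and 2 lower. They are relatives of BZR1, which switches genes in answer to brassinosteroids. Both BEH4 clusters fell, by 0.76 and 0.41 on the log2 scale, while BZR1 rose by 0.31 and BEH2 by 0.22, the last without a call when sterile replicate 2 was left out. None of these changes reached 2-fold.

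Several members are known from pollen. In Arabidopsis LBD27, also named SIDECAR POLLEN, is needed for the asymmetric division of the microspore, and LBD22, LBD25, LBD27 and LBD36 are expressed in pollen and bind LBD10. No cluster in the family had LBD10 as its match. The clusters with these names went in opposite directions. LBD27 (Cluster-6671.4394) was at 2.71, 1.70 and 2.01 FPKM in the sterile libraries, against 4.09, 3.0 and 4.37 FPKM in the fertile libraries. The clones did not overlap, and it fell by 0.99 ± 0.18 on the log2 scale (SE; adjusted p = 0.000171, edgeR).

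Both LBD22 clusters rose. Cluster-6671.17447 was at 37.4, 39.4 and 40.9 FPKM in the sterile libraries, against 2.04, 1.90 and 1.82 FPKM in the fertile libraries. Its log2 fold change was 4.19 ± 0.11 (SE; adjusted p = 1.68e-15, edgeR), and it was number 5 of all 31 clusters in sterile buds and number 13 in fertile buds. Cluster-7328.0 was much less abundant, at 1.72, 1.66 and 1.65 FPKM in the sterile libraries, against 0.260, 0.570 and 0.210 FPKM in the fertile libraries, with no overlap (log2 fold change 2.06 ± 0.35, adjusted p = 7.04e-05, edgeR). These clusters have different Prunus matches.

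The list of pollen regulators outside the family had 8 tested clusters, of which 2 rose, 3 fell and 3 did not pass. Of these 8, 62.5% were called, against 57.0% of all tested regulators. MYB101 acts in the pollen tube in Arabidopsis, and its 2 clusters differed in call. Cluster-6671.3187 averaged 5.26 ± 0.643 FPKM in sterile and 0.413 ± 0.0851 FPKM in fertile buds (SD, n = 3 each; log2 fold change 3.51 ± 0.18, SE). The more abundant MYB101 cluster (Cluster-6671.8436) averaged 36.1 ± 1.35 FPKM in sterile and 34.3 ± 2.65 FPKM in fertile buds and did not pass (log2 fold change -0.07 ± 0.07, SE). AGL65 rose by 0.63 on the log2 scale, while BZIP18 fell by 0.50. Of 2 WRKY2 clusters, Cluster-6671.5662 fell by 0.39 on the log2 scale, and the more abundant Cluster-6671.8263 did not pass (log2 fold change 0.03). With whole-library totals Cluster-6671.5662 was not called and 1 cluster of this list was lower instead of 3. Whether the amount of pollen-lineage RNA in the buds had a part in the values of LBD22 and LBD27 was not tested.

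**Figure D3:**
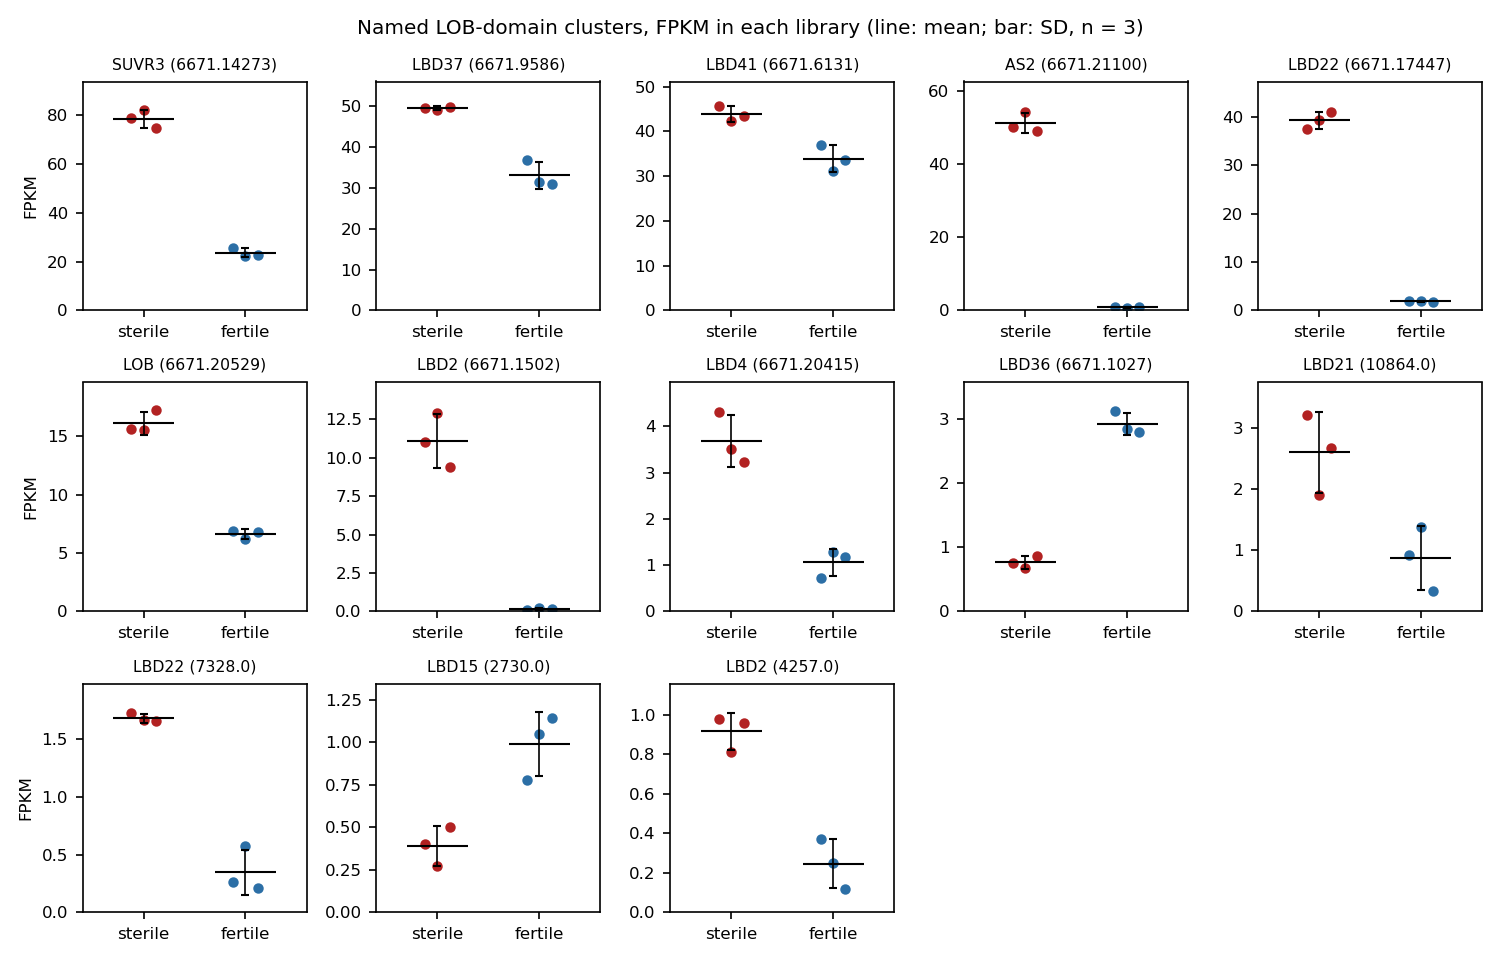
FPKM in each library (y axis, starting at 0) of 13 LOB-family clusters, with sterile libraries left and fertile libraries right of each panel; lines are means and bars are SD (n = 3). They are the clusters called with at least a 2-fold change and the 5 most abundant. In all 13 panels the points of the clones do not overlap, which the choice of called clusters favours. Of all regulators, 65.1% had no overlap.

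Other members act in vascular tissue and lateral roots. LBD4 acts in Arabidopsis at the border of phloem and procambium, and LBD1 and LBD11 act in the cambium. LBD4 (Cluster-6671.20415) was at 4.32, 3.52 and 3.23 FPKM in the sterile libraries, against 0.720, 1.28 and 1.18 FPKM in the fertile libraries. All sterile values were above all fertile values (log2 fold change 1.63 ± 0.24, adjusted p = 1.79e-05, edgeR). LBD11 averaged 1.53 ± 0.407 FPKM in sterile and 1.37 ± 0.0611 FPKM in fertile buds and did not pass (log2 fold change 0.01 ± 0.27, adjusted p = 0.991, edgeR).

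LBD16 and LBD18 are switched on by the auxin factors ARF7 and ARF19 in Arabidopsis lateral roots, and LBD18 also acts in xylem vessels. Neither passed the test, although LBD18 was called lower without fertile replicate 3 (log2 fold change -0.56). LBD16 averaged 0.973 ± 0.0651 FPKM in sterile and 0.587 ± 0.110 FPKM in fertile buds, and LBD18 2.32 ± 0.207 FPKM in sterile and 2.75 ± 0.497 FPKM in fertile buds. The auxin list had 3 tested clusters: ARF19 rose by 0.25, IAA3 fell by 0.47 on the log2 scale, and ARF5 did not pass, except without fertile replicate 1 (log2 fold change -0.26). ARF19 lost its call without the low-count filter and without any 1 of the 3 sterile libraries. Of 11 tested clusters for vascular NAC, E2F and wall MYB factors 4 rose and 7 did not pass. The share called was 36.4% here and 66.7% in the auxin list, against 57.0% of all tested regulators. In the vascular list 1 cluster was called lower with DESeq2, without the low-count filter, and without sterile replicate 1, 2 or 3 or fertile replicate 2. The 4 that rose were 2 NAC083 clusters at 0.59 and 0.61, E2FB at 0.58 and 1 NAC101 cluster at 0.49 on the log2 scale. The tested NAC037, NAC007 and NAC030 clusters did not pass. Another NAC083 cluster (Cluster-6671.14165), with 12 counts in sterile and 52 in fertile libraries, and a second NAC101 cluster (Cluster-6724.0), with 18 counts in sterile and 21 in fertile libraries, were below the filter.

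Class II members belong to responses to nitrogen and oxygen. All 3 class II clusters rose, each by less than 2-fold, where 28.0% of all tested regulators were called higher. LBD37 and LBD38 repress nitrate-response and anthocyanin genes in Arabidopsis, and LBD41 is a gene of the low-oxygen response. LBD37 (Cluster-6671.9586) was at 49.7, 49.1 and 49.9 FPKM in the sterile libraries, against 36.9, 31.4 and 30.95 FPKM in the fertile libraries, with no overlap (log2 fold change 0.43 ± 0.08, adjusted p = 0.000148, edgeR). LBD38 averaged 16.2 ± 0.915 FPKM in sterile and 9.67 ± 1.11 FPKM in fertile buds (log2 fold change 0.58 ± 0.11, adjusted p = 0.000208, edgeR). LBD41 (Cluster-6671.6131) was at 45.8, 42.3 and 43.4 FPKM in the sterile libraries, against 37.02, 31.1 and 33.6 FPKM in the fertile libraries. It was the most abundant family cluster of fertile buds, and its change was small (log2 fold change 0.22 ± 0.08, adjusted p = 0.0206, edgeR). That call was lost when any of 5 single libraries was left out, with adjusted p-values of 0.0551 to 0.122 (edgeR).

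In the list of nitrate and anthocyanin regulators 13 clusters were tested and 76.9% were called, against 57.0% of all tested regulators. In that list 5 rose, 5 fell and 3 did not pass. The number that rose was 3 without sterile replicate 2 or 3. Among the MYB activators of anthocyanin synthesis there, the 3 tested clusters fell, and 2 were below the filter. MYB75 was at 3.28, 3.64 and 2.34 FPKM in the sterile libraries, against 11.5, 11.4 and 10.9 FPKM in the fertile libraries (log2 fold change -2.03 ± 0.14, adjusted p = 9.8e-10, edgeR). The tested MYB90 cluster (Cluster-6671.14699) had 1 count over the sterile libraries and 81 counts over the fertile libraries. A second MYB90 cluster (Cluster-7818.0) had 11 counts in sterile and 9 in fertile libraries and MYB113 had 5 in sterile and 6 in fertile libraries, both too few to be tested. MYB114 fell by 0.33 on the log2 scale, and TGA4, a nitrate-response bZIP factor, rose by 0.73.

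For the remaining members no role is given here. LBD2 (Cluster-6671.1502) was at 11.0, 12.9 and 9.38 FPKM in the sterile libraries, against 0.10, 0.230 and 0.160 FPKM in the fertile libraries. It had 484 counts over the sterile libraries and 10 over the fertile libraries, and the largest log2 fold change of the family, 5.84 ± 0.28 (SE; adjusted p = 7.88e-12, edgeR). A second cluster of that name (Cluster-4257.0, LBD6-like by its Prunus mume match) was at 0.980, 0.810 and 0.960 FPKM in the sterile libraries, against 0.370, 0.250 and 0.120 FPKM in the fertile libraries (log2 fold change 1.67 ± 0.49, adjusted p = 0.00763, edgeR). Both LBD2 clusters were separated between the clones, the smaller one on 37 counts in sterile and 14 counts in fertile libraries.

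LBD21 (Cluster-10864.0) was at 3.22, 1.91 and 2.68 FPKM in the sterile libraries, against 0.920, 1.38 and 0.340 FPKM in the fertile libraries, without overlap (log2 fold change 1.33 ± 0.39, adjusted p = 0.00765, edgeR). LBD15 went the other way in Cluster-2730.0, which was at 0.400, 0.270 and 0.50 FPKM in the sterile libraries, against 0.780, 1.05 and 1.14 FPKM in the fertile libraries (log2 fold change -1.47 ± 0.47, adjusted p = 0.0126, edgeR). That rests on 13 counts in sterile and 45 counts in fertile libraries, and without sterile replicate 2 the adjusted p was 0.0527 (edgeR). The other LBD15 cluster averaged 0.963 ± 0.290 FPKM in sterile and 1.09 ± 0.0300 FPKM in fertile buds and did not pass.

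LBD19 averaged 1.297 ± 0.130 FPKM in sterile and 2.03 ± 0.0346 FPKM in fertile buds and fell by 0.80 ± 0.27 on the log2 scale (adjusted p = 0.0179, edgeR). Its adjusted p was 0.0621 without sterile replicate 1 (edgeR) and 0.068 with DESeq2. The largest LBD12 cluster averaged 2.43 ± 0.514 FPKM in sterile and 1.65 ± 0.645 FPKM in fertile buds and did not pass (log2 fold change 0.38 ± 0.43, SE).

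The 7 clusters below the count filter were LBD23, 1 LBD4 cluster, 2 LBD12 clusters and all 3 LBD1 clusters, with 6 to 53 counts over the 6 libraries and at most 21 in 1 library. No difference was tested in them. The second LBD4 cluster had 28 counts in sterile and 12 in fertile libraries, and the fullest LBD1 cluster (Cluster-9103.0) had 12 in sterile and 41 in fertile libraries. Cluster-7108.1 (LBD1) had no count in the sterile libraries and 6 in the fertile libraries. A count of 0 allows 3 counts. At the full median length of a member these would be 0.138 to 0.162 FPKM in sterile and 0.104 to 0.119 FPKM in fertile libraries. The deposited FPKM per count were higher, so these floors are too low. LBD18, at the median length of 1144 bases, had 35 counts and 2.54 FPKM in sterile replicate 1. The short Cluster-7108.1, of 374 bases, had 4 counts and 1.45 FPKM in fertile replicate 1.

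Clusters of the same name were compared inside each library, where scaling cancels, for LBD22, LOB, LBD36 and LBD15. The other shared names, LBD1, LBD2, LBD4 and LBD12, were not compared in this way. For LBD22, Cluster-6671.17447 over Cluster-7328.0 gave 21.8, 23.7 and 24.8 in the sterile libraries and 7.85, 3.33 and 8.67 in the fertile libraries. For LOB, Cluster-6671.20529 over Cluster-6671.19348 gave 2.14, 2.18 and 2.21 in sterile and 1.28, 1.17 and 1.36 in fertile libraries. For LBD36, Cluster-6671.151 over Cluster-6671.1027 gave 7.12, 11.3 and 8.13 in sterile and 1.63, 1.98 and 2.05 in fertile libraries. In these 3 pairs, and for AS2 over AS1, the clones did not overlap. For LBD15 the ratio was 2.62, 4.44 and 1.28 in sterile and 1.36, 1.07 and 0.956 in fertile libraries, and the clones overlapped. Over the 5 ratios the two-sided exact permutation p was 0.10 in 4, the smallest that 3 against 3 libraries can give, and 0.20 for LBD15, with Benjamini-Hochberg adjusted values of 0.125 and 0.20. These pairs were chosen after their values were known. Some ratios rest on few counts, with 5 to 16 per fertile library for Cluster-7328.0 and 3 to 6 per sterile library for Cluster-2730.0.

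**Figure D4:**
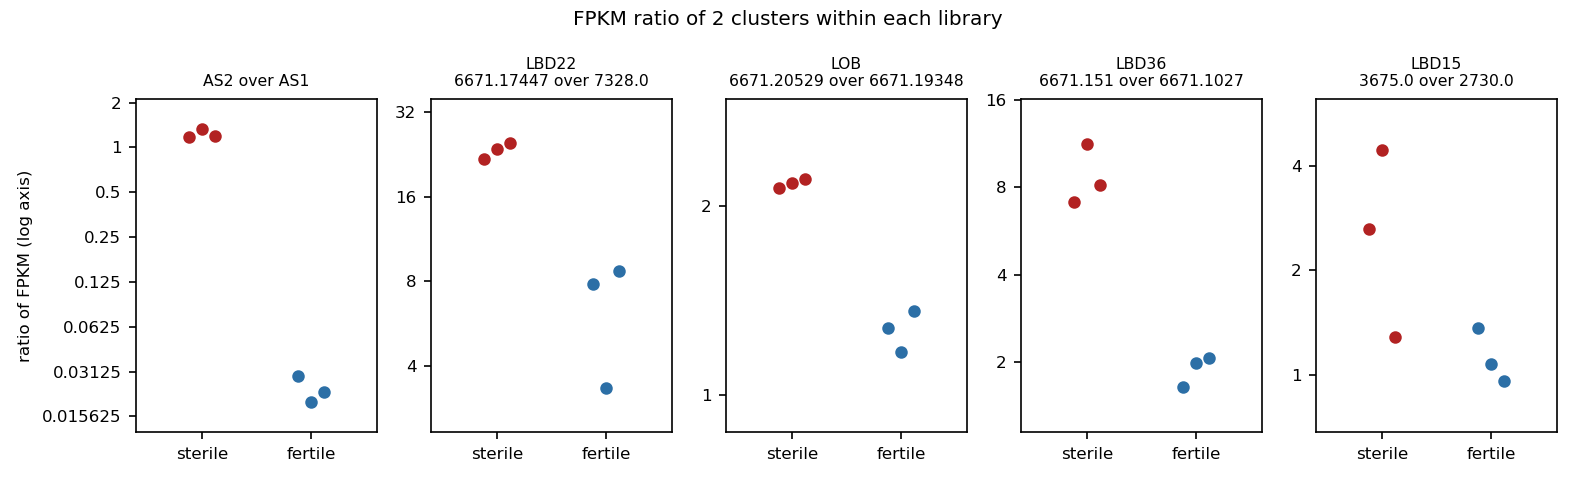
Ratio of the FPKM of a pair of clusters within each library (y axis, log axis), with sterile libraries left and fertile libraries right; each point is 1 library. AS2 over AS1 is 1.18 to 1.32 in sterile and 0.0196 to 0.0290 in fertile libraries, and the LBD22, LOB and LBD36 pairs also separate the clones, while the LBD15 pair overlaps.

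The pair of clusters without a LOB-domain match is described last. SUVR3 (Cluster-6671.14273) was the most abundant cluster under the family label in sterile buds, at 78.8, 82.3 and 74.9 FPKM, against 25.7, 22.4 and 22.9 FPKM in the fertile libraries, with no overlap (log2 fold change 1.59 ± 0.07, adjusted p = 4.86e-12, edgeR). The cluster is 5391 bases long with a coding span of 1077 bases, and the strand of the reads is not given in the sources used here, so reads of the histone methyltransferase and of a LOB-type frame on the other strand cannot be told apart. At1g18910 averaged 9.92 ± 0.0569 FPKM in sterile and 8.48 ± 0.888 FPKM in fertile buds and did not pass (log2 fold change 0.09 ± 0.07, adjusted p = 0.280, edgeR).

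Over the 6 pathway lists together, 58 clusters were tested, 20 rose, 14 fell and 24 did not pass. That is 58.6% called, near the 57.0% of all tested regulators. In these lists 1 MYB101 cluster (Cluster-6671.3187) rose by at least 2-fold, and MYB75 and 1 MYB90 cluster (Cluster-6671.14699) fell by at least 2-fold. Under the LOB-family label it was 9 and 2 of 24 tested clusters, or 8 and 2 of the 22 with a LOB-domain match.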

How the data were processed

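Total RNA of flower buds was sequenced from 6 libraries; per the submitters' processing notes CASAVA, Bowtie2 and RSEM were used, without versions. How the clusters were assembled and how the authors tested them is not stated in the labels or headers. The authors deposited estimated counts (RSEM-type, shared between similar clusters) and FPKM for regulators, and FPKM for 34377 clusters, per the file headers. Cluster length in bases, and a log2 fold change and q-value of the authors' own comparison, are deposited beside them, per the file headers. Estimated counts are deposited for regulators only. Groups and replicate numbers came from the labels.

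After rounding to integers, the estimated counts went into edgeR 4.0.16 (R 4.3.3). The low-count filter (filterByExpr) took out 128 clusters with 0.0424% of the counts, TMM scaled libraries within the regulator table, and the robust quasi-likelihood fit was used, with Benjamini-Hochberg adjustment and a threshold of 0.05. Standard errors are the log2 fold change divided by the square root of F. limma 3.58.1 (trend, robust) was run on log2(FPKM + 1) for clusters with at least 1 FPKM in 3 libraries; fold changes on that scale understate those of low clusters. DESeq2 1.42.0, other scalings, no filter, a replicate block, leaving out each library, summed clusters and a 2-fold minimum were alternatives. The code was tested on simulated data. Implied depths, from counts against FPKM and length, were 16206850 to 19008446 fragments in sterile and 22073702 to 25277334 in fertile libraries. Floors use these depths with the full cluster length and cover counting error only.

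Values in every library are given for clusters called with at least 2-fold and the 5 most abundant, and up to 4 clusters per pathway list were named by lowest p. LBD27 and the within-library ratios were added outside that rule. The members and lists were chosen with earlier results of these data known.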

Additional observations from a re-analysis of the deposited data

How the results depend on the processing

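Under other scalings, no filter, DESeq2 and summed clusters, the tested LOB-family clusters had 10 to 14 higher and 3 to 4 lower calls; leaving out 1 library gave 12 to 13 higher and 3 to 5 lower. Requiring 2-fold left 2 lower. In the FPKM table with limma, lower calls were 0 to 2 when 1 library was left out (0 without fertile replicate 3), against 3 with all, and higher calls 9 to 13. Requiring 2-fold left 1 higher and 2 lower pathway clusters, and 79 higher and 106 lower of all regulators. For LBD36 (Cluster-6671.151), summing clusters of the same name turned 0.14 into -0.30; by construction this adds the cluster that fell. At1g18910 passed with whole-library totals (0.22) and LBD18 without fertile replicate 3 (-0.56). Whole-library totals moved the median log2 fold change of all regulators to 0.15, against 0.014, and the split of calls to 567 higher and 297 lower, against 387 and 399. Fertile replicate 1 stood apart from the other fertile libraries. Their counts differed by a chi-square per degree of freedom of 12.5 and 11.8, against 1.58 to 1.78 for the other pairs within a clone. Without fertile replicate 1, 455 regulators were higher and 451 lower. The cause of these shifts was not tested.

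The replicate numbers did not pair the samples (correlations of deviations 0.0227, 0.0224 and 0.0132). With the replicate block, 13 LOB-family clusters were higher and 4 lower in edgeR, 12 and 2 in limma, and 389 and 392 of all regulators in edgeR. Clusters with few counts, such as LBD15, LBD21 and the smaller LBD2 and LBD22 clusters, are limited by depth.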

Other observations

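In the authors' deposited table, 8 of the 31 LOB-family clusters are marked as up and 1 as down in sterile against fertile buds, beside 90 up and 97 down among the 1508 regulators. The cluster marked as down is LBD36 (Cluster-6671.1027), with a log2 fold change of -2.02 in the authors' deposited table. LBD27 (Cluster-6671.4394) is not marked there, with a log2 fold change of -0.92 and a q-value of 0.00064 in the authors' deposited table. Every marked family cluster has a log2 fold change above 1 in size there, and LBD27 is below that. The rule of marking is not stated, but the marks are thus nearer to the calls of at least 2-fold than to all calls. LBD2 (Cluster-4257.0) and LBD15 (Cluster-2730.0) are not marked either, with q-values of 0.058 and 0.14 in the authors' deposited table, whereas both passed the edgeR test with at least a 2-fold change.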
